A study of Mus musculus with 36 samples.

Results

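The 10 genes described here encode the constant parts of mouse antibodies and the chain that joins them. They are the heavy chain genes Ighm (IgM), Ighd (IgD), Ighg1, Ighg2b and Ighg2c (3 IgG subclasses) and Igha (IgA), the light chain genes Igkc (kappa), Iglc1 and Iglc2 (lambda), and Jchain. They were chosen by name, and all 10 had a row among the 18781 rows of the expression table. Earlier results of these data were known when they were chosen, and Ighg1 was picked out for its difference between treatments in lung and liver. The treatment values of the 10 genes in lung and liver are therefore given as a description, and no effect of treatment is supported with them. Comparisons of tissues that pool the treatments include these values.

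The libraries came from age- and sex-matched wild-type C57BL/6 mice bearing tumors of MC38, a colon carcinoma line of the mouse. The ICB groups had received a high dose of anti-PD1 and anti-CTLA4 antibodies, immune checkpoint blockade against receptors that restrain T cells, and the IgG groups had received control IgG. All groups were tumor-bearing. Lung, liver, kidney, skeletal muscle, heart and tumor each had 3 ICB and 3 IgG libraries, 36 in all, made by bulk RNA sequencing of flash-frozen tissue. No label ties the 3 libraries of a group to different mice, and p-values then reflect variation among samples that could be technical in part. The tissue labels matched the genes that define each organ: albumin (Alb) was at 34886 FPKM or more in liver libraries and at most 62.1 FPKM elsewhere, and Sftpc in lung, Umod in kidney, Myh6 in heart and Acta1 in muscle separated their organs from the rest in the same way. These 5 genes were picked after the data were seen, and no such gene was looked for in tumor. The libraries held 19005189 to 25512980 reads. FPKM are fragments per length of gene and per depth of library, and thus a level per length of gene.

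An antibody joins heavy chains to kappa or lambda light chains. A resting B cell makes IgM and IgD from one long transcript by alternative splicing. After activation, class switch recombination replaces the mu constant gene with a gamma, epsilon or alpha gene further along chromosome 12, and cytokines steer the choice: in mice, interleukin 4 favours IgG1 and interferon gamma favours IgG2c, the subclass that C57BL/6 mice carry in place of IgG2a. Plasma cells then secrete antibody and fill much of their RNA with immunoglobulin transcripts. The J chain, a small protein of such cells, links IgM into pentamers and IgA into dimers, the forms that the receptor Pigr carries across epithelia. The antibodies given as treatment are proteins and give no reads.

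In GRCm38 the 6 heavy chain genes lie on the minus strand of chromosome 12, from Igha (113254830 to 113260236) through Ighg2c (113285325 to 113288932), Ighg2b (113302965 to 113307933), Ighg1 (113325240 to 113330523) and Ighd (113406604 to 113416324) to Ighm (113418558 to 113422730). Igkc lies on chromosome 6 (70726435 to 70726966, plus strand), Iglc1 and Iglc2 on the minus strand of chromosome 16 (19061618 to 19062071 and 19198396 to 19200351), and Jchain on the minus strand of chromosome 5 (88519809 to 88527891). The gene lengths implied by the FPKM values equalled the annotated exonic lengths of GENCODE M21 for all 10 genes. Those lengths include the exons of the membrane-bound form, so the level of a secreted chain is divided by more than its own transcript: Ighg1 was counted over 2592 bases, while its shorter annotated transcript has 1076.

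The IgG subclasses are related in sequence, so the first 90 bases of their first constant exon are shown to give the differences by which reads are told apart. Capitals mark every position at which the 3 genes are not all the same.
Ighg1, chr12:113330434-113330523 minus: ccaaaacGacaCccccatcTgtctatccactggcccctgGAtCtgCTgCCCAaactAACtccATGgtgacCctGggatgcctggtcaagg
Ighg2b, chr12:113307844-113307933 minus: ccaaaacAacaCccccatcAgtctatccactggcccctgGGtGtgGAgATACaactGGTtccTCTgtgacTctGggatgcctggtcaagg
Ighg2c, chr12:113288843-113288932 minus: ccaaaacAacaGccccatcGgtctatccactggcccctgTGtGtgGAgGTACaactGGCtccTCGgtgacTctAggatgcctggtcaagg
Ighg1 differed from Ighg2b at 17 of these 90 positions and from Ighg2c at 18, while Ighg2b and Ighg2c differed from each other at 7. Over the whole exonic sequence, 0.393% of the 50-base stretches of Ighg1 also occurred in another gene, against 4.15% for Ighg2b and 5.49% for Ighg2c. Ighm, Ighd, Igha, Igkc and Iglc1 had no such stretch.

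The lambda genes are shown in the same way, with Iglc3 beside them because it is the gene closest to Iglc2.
Iglc1, chr16:19061982-19062071 minus: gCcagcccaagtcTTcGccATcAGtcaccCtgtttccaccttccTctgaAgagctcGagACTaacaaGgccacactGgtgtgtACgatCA
Iglc2, chr16:19198763-19198852 minus: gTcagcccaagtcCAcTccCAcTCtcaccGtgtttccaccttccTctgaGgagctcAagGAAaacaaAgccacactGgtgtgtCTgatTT
Iglc3, chr16:19065592-19065681 minus: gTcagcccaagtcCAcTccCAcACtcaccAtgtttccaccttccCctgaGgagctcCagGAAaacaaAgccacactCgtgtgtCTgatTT
Iglc2 and Iglc3 differed at 5 of the 90 positions, and 7.65% of the 50-base stretches of Iglc2 recurred elsewhere. The values of Iglc2, Ighg2b and Ighg2c are uncertain to that extent, since the way that shared reads were counted is not given in the sources used here.

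Lung had the most immunoglobulin RNA of the 6 tissues, and on the FPKM scale liver came next for most of the genes. Skeletal muscle held Ighm at FPKM that overlap those of lung, with almost no light chain. Tissues were compared in one limma fit of all 36 libraries on log2(FPKM + 1), with Benjamini-Hochberg adjustment over 16123 genes. Differences below are on that scale, which understates changes of low genes. Differences in bulk tissue do not tell fewer cells from less RNA per cell. Lung was higher than liver for 9 of the 10 genes (76.8% of all genes differed in either direction), than kidney for 10 (73.1%), than tumor for 10 (74.9%), than heart for 9 (70.3%) and than muscle for 9 (75.6%). Liver was higher than kidney for 9 (64.2%), than tumor for 8 (75.4%), than heart for 7 (71%) and than muscle for 8, with Ighm lower (70.4%). These counts average the treatments, and with them the lung and liver ICB values for which Ighg1 was picked. In IgG libraries alone lung was higher than liver for 8 (67.2%). Liver was then higher than kidney for 5 (48.3%) and than tumor for 5 (65.6%). Kidney exceeded heart and muscle for Igkc and Igha, was below heart for Ighg2c (65.6%) and below muscle for Ighm (69.5%), and exceeded tumor for Igkc and Igha (76.7%). Muscle differed from heart (52.4%) and from tumor (75.1%) for Ighm alone, and heart from tumor (74.7%) for Ighg2c alone, with heart higher by 0.69 ± 0.26 (limma adjusted p = 0.0188). The call for Ighg2c was lost on the TPM scale, where each library is brought to the same sum (0.41, limma adjusted p = 0.181), in IgG libraries alone (limma adjusted p = 0.065) and without replicate 1 of each group (limma adjusted p = 0.0985). Igkc, Ighm and Igha were instead called lower in heart than in tumor on the TPM scale (-0.94, -0.90 and -0.45), where the median of all genes moved by -0.94 and 16.6% of genes were called higher and 65.2% lower in heart, against 33.7% and 41% on the FPKM scale. Leaving out 1 replicate of every group left 7 to 9 of the 10 genes to test, and the counts of liver against kidney, heart, muscle and tumor were then between 3 and 6 genes, and that of lung against muscle 5 of 7 without replicate 1. Most genes of the table differ between such tissues, so the counts describe the genes' level and not a property of antibody genes.

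**Figure D1:**
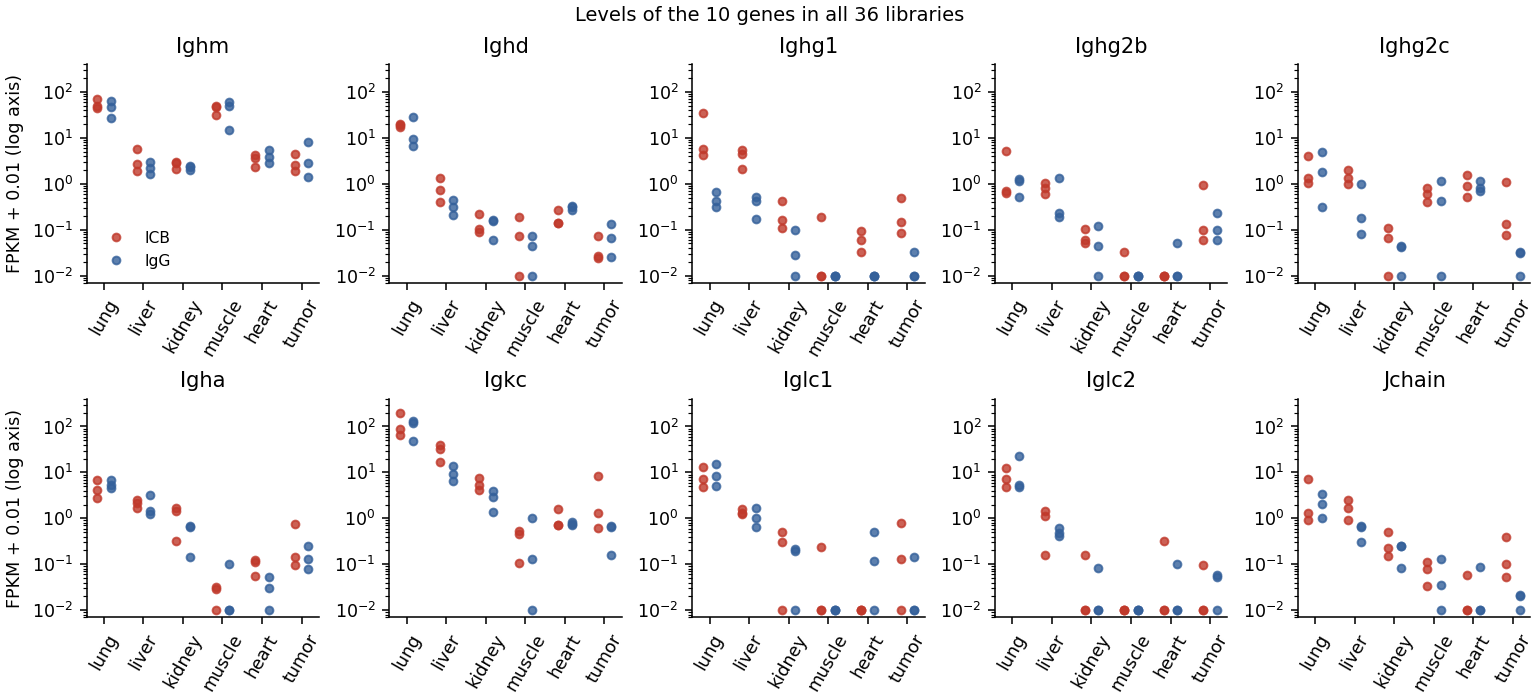
FPKM + 0.01 on a log axis for each of the 10 genes in 36 libraries, 3 per tissue and treatment, with ICB (red) left of IgG (blue); a point at the lowest level (0.01) has no reads. Lung is the highest tissue for most genes, the Ighm points of muscle and lung overlap, and the red and blue points of Ighg1 separate in 5 of the 6 tissues.

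The light chain Igkc had the widest range. It was at 87.4, 194 and 64.3 FPKM in lung ICB libraries and 133, 121 and 47.4 FPKM in lung IgG libraries. Liver followed with 32.2, 17 and 39.9 FPKM in ICB and 6.60, 9.15 and 14.1 FPKM in IgG, and kidney with 4.03, 7.58 and 5.28 FPKM in ICB and 2.94, 1.37 and 3.94 FPKM in IgG. Each step of this order passed the test: lung exceeded liver by 2.49 ± 0.34 (SE; limma adjusted p = 1.29e-07) and liver exceeded kidney by 1.86 ± 0.34 (limma adjusted p = 2.06e-05). Kidney in turn exceeded tumor by 1.14 ± 0.34 (limma adjusted p = 0.00334), a call lost without replicate 1 of each group (0.99, limma adjusted p = 0.058). Heart had 0.704 to 1.58 FPKM and muscle 0 to 1.00 FPKM, and no difference in Igkc among muscle, heart and tumor passed the test on the FPKM scale. On the TPM scale muscle as well as heart were called lower than tumor for Igkc.

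Lambda chains stayed a minority in lung, with Iglc1 at 4.77 to 15.5 FPKM and Iglc2 at 4.88 to 22.8 FPKM over the 6 libraries. In liver Iglc1 had 0.628 to 1.63 FPKM, and in kidney, muscle, heart and tumor it did not pass 0.763 FPKM in any library. Lambda made up 14.8% ± 4.51 (SD, n = 6) of the light chain FPKM in lung, 11.1% ± 4.44 in liver and 4.96% ± 2.63 in kidney. Among the 15 pairs of tissues, only lung against kidney passed for this share (difference 9.80 percentage points, exact permutation test, two-sided, 6 against 6 libraries, p = 0.00216, adjusted p = 0.00507 over 75 share tests). That p is the smallest the test can give. Muscle, heart and most tumor libraries had too few light chain reads (0 to 30 per library outside the third tumor ICB library, with 150) for a share to be read.

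Ighm, which B cells make before they switch class, did not follow the light chains. It was at 49.6, 68.4 and 44.8 FPKM in lung ICB libraries and 62.6, 45.8 and 27.1 FPKM in lung IgG libraries. In skeletal muscle it reached 48.6, 45.8 and 30.6 FPKM with ICB and 14.7, 59.997 and 47.9 FPKM with IgG, resting on 531 to 1789 reads per library. These levels overlap with those of lung, and the difference of 0.33 ± 0.30 in favour of lung did not pass (limma adjusted p = 0.325). On the TPM scale it did, with lung higher by 1.48 ± 0.28 (limma adjusted p = 2.03e-05), while the median of all genes was higher in lung by 0.84 there and by 0.07 on the FPKM scale. Of all genes 69.7% were called higher and 13.7% lower in lung than in muscle on the TPM scale, against 41.8% and 33.8% on the FPKM scale. Muscle exceeded heart, its nearest tissue in kind, by 3.08 ± 0.30 (limma adjusted p = 5.09e-10), and by 3.03 on the TPM scale. The other tissues had 1.61 to 5.61 FPKM in liver, 1.93 to 2.93 in kidney, 2.25 to 5.45 in heart and 1.37 to 7.92 in tumor, and tumor was called above liver, kidney and heart for Ighm on the TPM scale.

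The muscle Ighm reads stood beside few reads of any other antibody gene. The same 6 muscle libraries held 0 to 9 Igkc reads each, 0 to 2 Iglc1 reads and 0 Iglc2 reads. Of the 34 V genes in the table, which encode the antigen-binding parts of antibodies, 28 had no read in any muscle library. B cell markers summed to 5.02 to 6.74 FPKM in muscle ICB and 4.40 to 5.33 FPKM in muscle IgG libraries, beside 3.46 to 5.53 FPKM in kidney ICB and 3.46 to 3.98 FPKM in kidney IgG libraries. Of these markers, Cd79a reached 0.212 FPKM and Cd79b 0.368 FPKM in muscle. Mzb1, a chaperone of antibody-making cells, was at 0.940 to 1.31 FPKM in muscle ICB and 0 to 1.05 FPKM in muscle IgG libraries. In muscle Ms4a1 (CD20) reached 0.0673 FPKM and Pax5, the transcription factor that holds B cell identity, reached 0.0294 FPKM. In lung Ms4a1 was at 0.807 to 3.39 FPKM and Pax5 at 0.867 to 2.66 FPKM. The ratio of Ighm to Igkc FPKM was 0.507 ± 0.131 in lung (SD, n = 6), 0.175 ± 0.0903 in liver, 0.746 ± 0.482 in kidney and 4.56 ± 1.88 in heart. In muscle it averaged 242 ± 239 over the 5 libraries that had an Igkc read. Ms4a1, Pax5 and Mzb1 were singled out after their values were seen. What the muscle reads at Ighm come from was not tested.

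**Figure D2:**
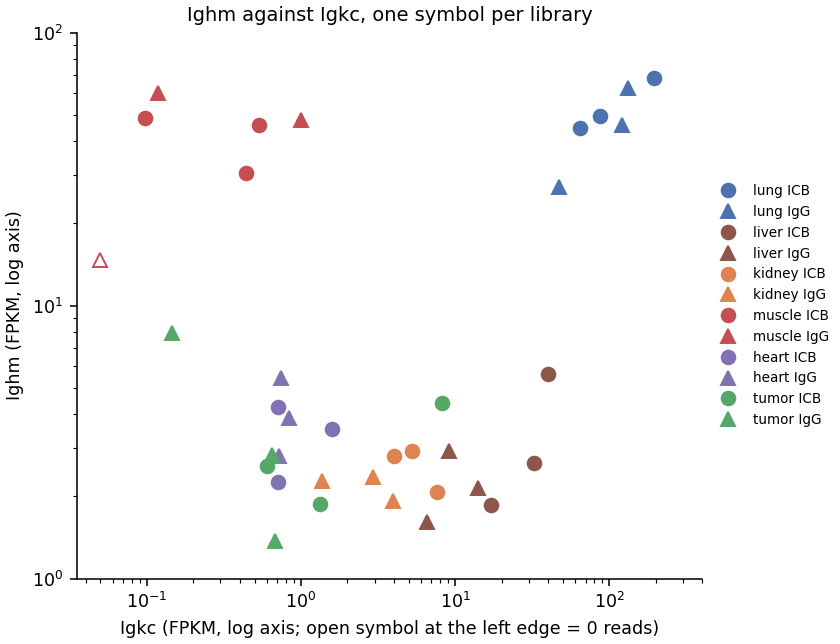
Ighm against Igkc in FPKM, both on log axes, with one symbol per library, circles for ICB and triangles for IgG, and colors for the 6 tissues; the open triangle at the left edge is a muscle library without Igkc reads. Muscle libraries overlap with lung in Ighm (14.7 to 59.997 FPKM) at an Igkc level of at most 1.00 FPKM.

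Ighd, the IgD constant gene of naive B cells, was mainly seen in lung. Its levels there were 18.7, 19.99 and 17.05 FPKM with ICB and 28.7, 6.59 and 9.52 FPKM with IgG, while the highest value outside lung was 1.32 FPKM, in a liver ICB library. Lung exceeded liver by 3.41 ± 0.18 (limma adjusted p = 1.15e-16). Liver exceeded kidney by 0.44 ± 0.18 (limma adjusted p = 0.0315), a call that was lost on the TPM scale (0.21, limma adjusted p = 0.303). That scale moved the median of all genes between liver and kidney by -0.60. For each unit of Ighm, lung had 0.334 ± 0.107 units of Ighd (SD, n = 6), liver 0.198 ± 0.103, kidney 0.0509 ± 0.0227 and muscle 0.0013 ± 0.0015. The counts of Ighd in kidney (2 to 9 reads), heart (4 to 11) and muscle (0 to 6) limit how finely these tissues can be ranked.

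Igha, the IgA constant gene, was highest in lung, then in liver, then in kidney. Lung libraries had 4.04, 6.95 and 2.79 FPKM with ICB and 6.72, 4.56 and 5.29 FPKM with IgG, liver libraries 1.70, 2.50 and 2.14 FPKM with ICB and 1.21, 1.40 and 3.18 FPKM with IgG. Kidney libraries had 0.313, 1.71 and 1.42 FPKM with ICB and 0.651, 0.137 and 0.666 FPKM with IgG. Lung exceeded liver by 0.99 ± 0.17 (limma adjusted p = 8.04e-06), liver exceeded kidney by 0.77 ± 0.17 (limma adjusted p = 3.2e-04) and kidney exceeded tumor by 0.51 ± 0.17 (limma adjusted p = 0.00941). On the TPM scale the differences of liver from kidney and of kidney from tumor were 0.21 and 0.40 and did not pass (limma adjusted p = 0.356 and 0.0641), and the second was also lost in IgG libraries alone and without replicate 2 of each group. No difference among tumor, heart and muscle passed the test on the FPKM scale, and on the TPM scale muscle as well as heart were called lower than tumor.

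Jchain was highest in lung, at 0.932 to 7.25 FPKM over the 6 libraries, followed by liver at 0.302 to 2.44 FPKM. The 2 tissues differed by 0.66 ± 0.22 (limma adjusted p = 0.00792), and liver exceeded kidney by 0.70 ± 0.22 (limma adjusted p = 0.00642). The call of liver against kidney was lost on the TPM scale (0.33, limma adjusted p = 0.195), in IgG libraries alone and without replicate 3 of each group. Kidney had 0.0724 to 0.489 FPKM, and the other tissues had 0 to 0.375 FPKM. Set against Igkc, liver was above lung: Jchain per unit of Igkc was 0.055 ± 0.00834 in liver (SD, n = 6), 0.0563 ± 0.0175 in kidney and 0.0219 ± 0.0093 in lung. This ratio ran from 0.0145 to 0.0374 in lung and from 0.0457 to 0.0683 in liver, without overlap. It was not tested.

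The make-up of the heavy chains differed between tissues, with the highest mean IgD share in lung and the highest mean IgG share in liver. IgM took 61.9% ± 7.26 (SD, n = 6) of the heavy chain FPKM in lung, 32.4% ± 9.47 in liver, 69.4% ± 13.9 in kidney, 73.9% ± 11.9 in heart, 82.3% ± 12.9 in tumor and 98.6% ± 0.832 in muscle. IgD took 20.4% ± 6.68 in lung and 5.89% ± 1.84 or less elsewhere. IgG took 36% ± 15.5 in liver, against 20.2% ± 10.4 in heart, 11% ± 10.4 in lung and 5.84% ± 4.20 in kidney, and the difference between liver and heart did not pass (exact permutation p = 0.0649, adjusted p = 0.0994). These means pool the treatments, and with them the ICB libraries for which Ighg1 was picked. The IgG share was 49.3% ± 6.89 in liver ICB and 22.7% ± 4.91 in liver IgG libraries (SD, n = 3 each), 16.4% ± 12.8 in lung ICB and 5.51% ± 4.28 in lung IgG libraries, 8.21% ± 4.603 in kidney ICB and 3.47% ± 2.45 in kidney IgG libraries, and 22.7% ± 13.9 in heart ICB and 17.7% ± 7.67 in heart IgG libraries. IgA took 25.7% ± 12.2 in liver, 21.3% ± 13.5 in kidney and 6.68% ± 2.98 in lung, and 4.89% ± 2.66 or less in the others.

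Of the 75 share tests, 44 passed after adjustment (exact permutation tests, two-sided, 6 against 6 libraries, or 6 against 5 for lambda in muscle, where 1 library had no light chain read). The tests pool the treatments, and with them the ICB values for which Ighg1 was picked. Ighg1 took 31.2% of the heavy chain FPKM in liver ICB and 7.30% in liver IgG libraries, and 12.6% and 0.654% in lung. The liver IgM share was 25.7% with ICB and 39.1% with IgG. The share calls of these tissues rest in part on those values, and IgG libraries alone are too few to pass. IgA shares differed in 13 of the 15 pairs of tissues, IgD shares in 11, IgM shares in 10 and IgG shares in 9. Every pair with muscle is among them for all of these classes. The muscle shares follow from Ighm reads that stood beside 0 to 9 Igkc reads per library, and the source of those reads was not tested. Liver had a lower IgM share than each of the other 5 tissues, with differences of 29.5 to 66.2 percentage points (exact permutation p = 0.00216 in each pair, the smallest possible). Lung had a higher IgD share than each of the other 5 by 14.6 to 20.3 percentage points, again at the smallest possible p. The difference between liver and kidney in the IgA share did not pass the test. These shares are set by few reads outside lung and muscle: 104 to 610 heavy chain reads per library in tumor, 132 to 212 in heart and 90 to 513 in liver.

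**Figure D3:**
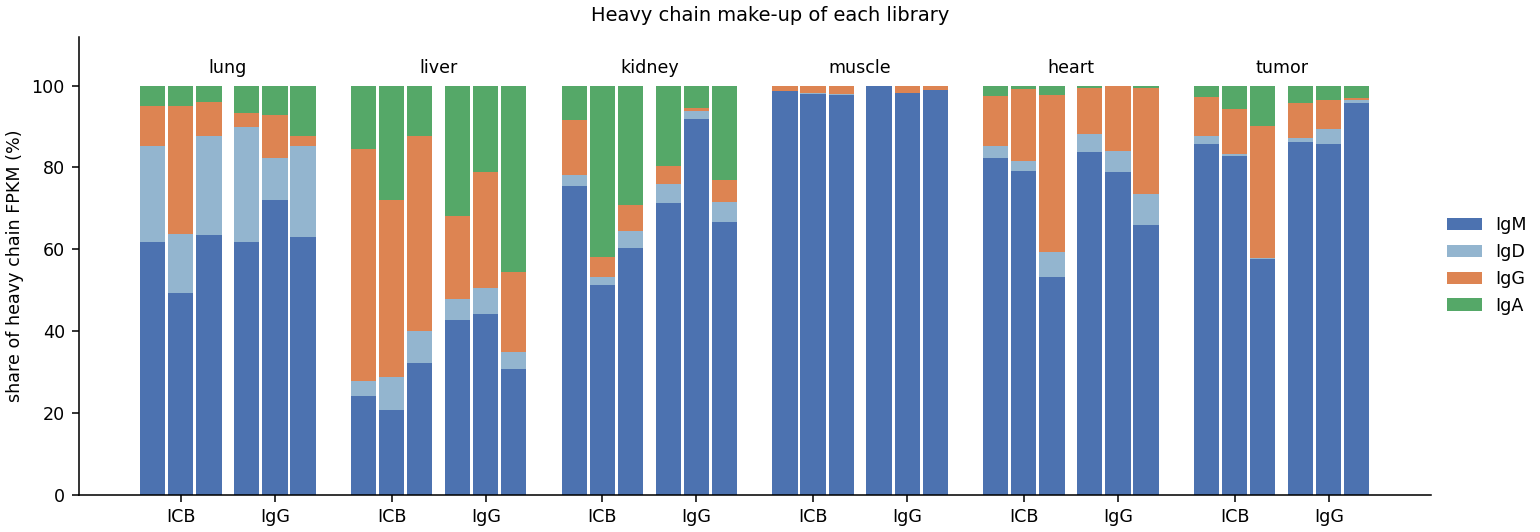
Share of the summed FPKM of Ighm, Ighd, Ighg1, Ighg2b, Ighg2c and Igha taken by each class, in percent, one bar per library, with the 3 ICB bars left of the 3 IgG bars in each tissue. Muscle is almost all IgM, lung has the largest IgD band, and the IgG band of liver is wider in ICB (43.3% to 56.8%) than in IgG libraries (19.6% to 28.3%).

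Between treatments, Ighg1 is given first in lung and liver, where it was picked for its difference. In lung it was at 5.80, 34.0 and 4.27 FPKM with ICB (498, 3198 and 363 reads) and at 0.634, 0.404 and 0.302 FPKM with IgG (49, 30 and 27 reads). In liver it was at 4.34, 2.11 and 5.31 FPKM with ICB (124, 67 and 186 reads) and at 0.513, 0.404 and 0.159 FPKM with IgG (14, 14 and 5 reads). The groups do not overlap in either tissue. The ratio of the means was 32.9 in lung and 10.9 in liver. The second lung ICB library carried most of the lung difference: without it the lung ratio was 11.3, and the groups still did not overlap.

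In the other tissues Ighg1 was rare, and it was more often seen with ICB. Kidney had 0.407, 0.101 and 0.155 FPKM with ICB (29, 7 and 9 reads) and 0, 0.0176 and 0.0878 FPKM with IgG (0, 1 and 5 reads). Tumor had 0.135, 0.0729 and 0.474 FPKM with ICB (12, 7 and 39 reads) and 0.0232, 0 and 0 FPKM with IgG (2, 0 and 0 reads). Neither pair of groups overlaps. The summed reads, scaled for depth, stood in a ratio of 6.60 in kidney, with a 95% counting interval of 2.81 to 18.9, and of 29.9 in tumor, with an interval of 7.92 to 253. These intervals cover counting error only. Heart had 1, 2 and 4 reads with ICB and 0 in each IgG library, and muscle had 8 reads in 1 ICB library and 0 in the other 5.

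**Figure D4:**
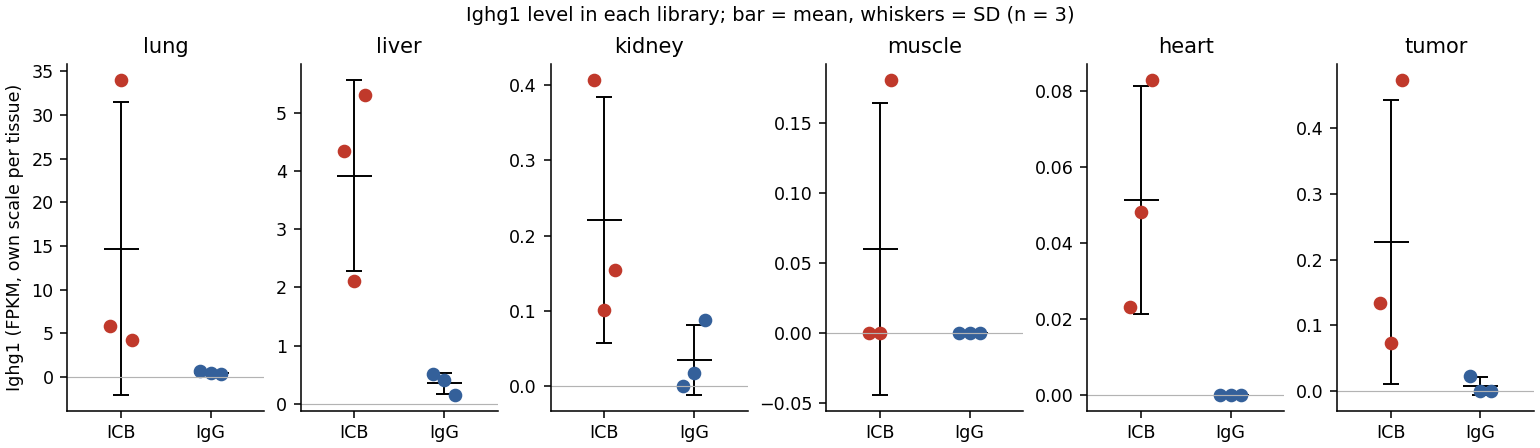
Ighg1 in FPKM in each library of the 6 tissues, with ICB left of IgG and a vertical scale of its own for each tissue; bars are means and whiskers SD over 3 libraries. The ICB points lie above all IgG points in lung, liver, kidney, heart and tumor, at levels that run from 34.0 FPKM at the top of lung to 0.0232 FPKM at the bottom of heart.

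Counted over all 10 genes, the libraries of ICB lay above those of IgG without overlap for 3 genes in tumor, where 5.3% of all genes did. These were Ighg1, Ighg2c and Jchain. In kidney they were Ighg1 and Igkc (4.8% of all genes), in heart Ighg1 and Igha (4.61%), and in muscle none of 9 genes with reads (5.87%). Igha in heart rested on 5, 2 and 5 reads with ICB and 2, 0 and 1 with IgG. Its lowest ICB library and its highest IgG library tie at 2 reads and are apart in FPKM only through their depth. In lung Ighg1 and in liver Ighg1, Igkc and Jchain were separated in this way, beside 4.56% and 4.02% of all genes, and nothing is read from these counts. The one gene with every ICB library below every IgG library was Ighd in heart (4.64% of all genes), with 4, 4 and 9 reads with ICB and 10, 10 and 11 with IgG. A separation of 3 against 3 libraries corresponds to an exact two-sided permutation p of 0.1, the smallest such groups can give.

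No gene of the 10 passed the limma test between ICB and IgG, which needs at least 1 FPKM in 3 of 6 libraries. In kidney Ighm and Igkc were tested and 0 passed, where 0.0168% of all genes did, with Igkc at an unadjusted p under 0.05. In tumor, muscle and heart Ighm alone was tested and did not pass, nor did it reach an unadjusted p under 0.05. There 0% of all genes passed. With limma-voom on the recovered reads the counts were the same, 0 adjusted in each of these tissues and Igkc unadjusted in kidney. In lung all 10 and in liver 5 of the genes met the filter, and 0 of them passed beside 0% of all genes in both tissues. Ighg1 met the filter there only through its ICB libraries. It was picked for this difference, so unadjusted p-values are not read in lung and liver.

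Igkc in kidney differed by 0.85 ± 0.28 (ICB minus IgG, limma adjusted p = 0.992, with 3 of 3 ICB libraries above every IgG library), from 59, 108 and 63 reads with ICB and 37, 16 and 46 with IgG. T cell markers in these kidneys summed to 3.88, 4.52 and 5.31 FPKM with ICB and 2.40, 3.06 and 2.82 FPKM with IgG, and macrophage and monocyte markers to 199, 87.6 and 165 FPKM with ICB and 80.4, 79.7 and 72.7 FPKM with IgG. Skeletal muscle genes in kidney summed to 11.1, 13.5 and 8.85 FPKM with ICB and 4.04, 6.42 and 6.98 FPKM with IgG. None of these 3 lists overlaps between the treatments. Erythroid genes in kidney were apart as well, in the other direction, at 222 to 361 FPKM with ICB and 510 to 704.5 FPKM with IgG. B cell markers overlapped, at 3.46 to 5.53 FPKM with ICB and 3.46 to 3.98 FPKM with IgG. V genes did too, at 1.68 to 4.58 FPKM with ICB and 0.621 to 2.09 FPKM with IgG. Plasma cell genes also overlapped, with 5 of 10 tested higher with ICB (median -0.02), beside 44.9% of all genes. The part of these lists in the Igkc values was not tested. Ighm in kidney differed by 0.17 ± 0.12 (limma adjusted p = 0.992), with overlapping groups. In tumor Ighm differed by -0.18 ± 0.48, in heart by -0.21 ± 0.23 and in muscle by 0.22 ± 0.48 (limma adjusted p = 0.95, 0.997 and 0.951). The sign in tumor and in muscle turned when single libraries were left out.

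The tumor differences leaned on one library. Igkc was at 0.602, 1.32 and 8.23 FPKM in tumor ICB libraries (11, 26 and 139 reads) and at 0.679, 0.650 and 0.146 FPKM in IgG libraries (12, 12 and 3 reads), so the groups overlap and the third ICB library is apart. That library also had the most Ighg2c, with 0.0658, 0.122 and 1.07 FPKM in ICB libraries and 0.0227, 0.0217 and 0 FPKM in IgG libraries. Jchain was at 0.0925, 0.0429 and 0.375 FPKM with ICB and at 0.0120, 0 and 0.0103 FPKM with IgG. The summed reads were 54 with ICB and 2 with IgG for Ighg2c, a ratio of 27.9 with a counting interval of 7.35 to 236, and 42 with ICB and 2 with IgG for Jchain, a ratio of 21.7 with an interval of 5.64 to 185. Without the third ICB library the ratios of mean FPKM moved to 13.4 for Ighg1 (29.3 with it), 6.35 for Ighg2c (28.3 with it) and 9.13 for Jchain (23.0 with it), and the groups did not overlap for any of the 3 genes. B cell markers summed to 23.4, 23.3 and 29.5 FPKM in these ICB libraries and 21.9, 27.8 and 46.3 FPKM in the IgG libraries, and V genes to 0.472, 2.52 and 10.4 FPKM with ICB and 0.566, 0.706 and 0.505 FPKM with IgG. Among defining B cell genes in tumor, Ms4a1 was at no more than 0.0349 FPKM, while Pax5 was at 2.44 to 3.57 FPKM with ICB and 2.08 to 2.66 FPKM with IgG. Skeletal muscle genes summed to 15.6, 349 and 3.94 FPKM in the tumor ICB libraries and 9.99, 4.66 and 5.50 FPKM in the tumor IgG libraries, and adipocyte genes to 3.66, 57.1 and 52.8 FPKM with ICB and 8.24, 5.73 and 2.33 FPKM with IgG, with overlap for both lists. Their part in the result was not tested.

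The groups of the other IgG subclasses overlap in lung and liver. Ighg2b in lung was at 0.677, 5.24 and 0.626 FPKM with ICB and 1.14, 1.25 and 0.509 FPKM with IgG. Ighg2c in lung was at 1.32, 3.95 and 1.01 FPKM with ICB and 1.80, 4.97 and 0.306 FPKM with IgG. Without the second lung ICB library the mean ratio of ICB to IgG was 0.674 for Ighg2b and 0.494 for Ighg2c. In liver Ighg2b was at 0.576, 0.791 and 1.05 FPKM with ICB and 0.177, 1.31 and 0.215 FPKM with IgG, and Ighg2c at 1.30, 0.983 and 1.95 FPKM with ICB and 0.0716, 0.169 and 0.994 FPKM with IgG, from 1 to 47 reads per library. Ighg3, which is not among the 10 genes, had 0.810, 2.27 and 0.676 FPKM with ICB and 0.775, 0.355 and 0.0268 FPKM with IgG in lung. The length implied by the FPKM was 1082 bases for Ighg3, of 2512 annotated, against 2592 for Ighg1 and 2678 for Ighg2b. The same reads thus give Ighg3 a higher FPKM than those 2 genes. Differences between the subclasses' responses were not tested.

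Ighg2c had reads in every heart library (11 to 38 each) and in all but 1 muscle library (0 to 24 each). Heart libraries had 0.498, 0.894 and 1.54 FPKM with ICB and 0.682, 0.782 and 1.12 FPKM with IgG, and muscle libraries 0.582, 0.813 and 0.397 FPKM with ICB and 0, 1.14 and 0.403 FPKM with IgG. Ighg2b, its neighbour on the chromosome, had at most 2 reads in any of these 12 libraries. Heart exceeded kidney for Ighg2c by 0.87 ± 0.26 (kidney minus heart, -0.87, limma adjusted p = 0.00459), a call lost in IgG libraries alone (limma adjusted p = 0.0799). The difference from liver did not pass (liver minus heart, -0.07 ± 0.26). In the fit of all 36 libraries on log2(FPKM + 1), muscle was not called different from kidney, heart or tumor for Ighg2c. Treatments overlap in heart and in muscle.

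Among the class-switched heavy chains alone, a share chosen after the data were seen, Ighg1 took 49.0%, 67.8% and 49.1% in lung ICB libraries and 6.16%, 3.61% and 4.72% in lung IgG libraries. Igha took 34.1%, 13.9% and 32.1% in the same ICB libraries and 65.3%, 40.8% and 82.5% in the IgG libraries. In liver Ighg1 took 54.8%, 33.0% and 50.8% with ICB and 26.0%, 12.3% and 3.49% with IgG. The 2 groups are apart for Ighg1 in lung and liver, which is the difference they were picked for, and for Igha in both as the other side of the same sum. In kidney Igha kept the larger part, at 38.4%, 89.6% and 82.3% with ICB and 82.0%, 88.6% and 81.0% with IgG. The first kidney ICB library, with 49.9% Ighg1 from 59 switched reads, was the exception.

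**Figure D5:**
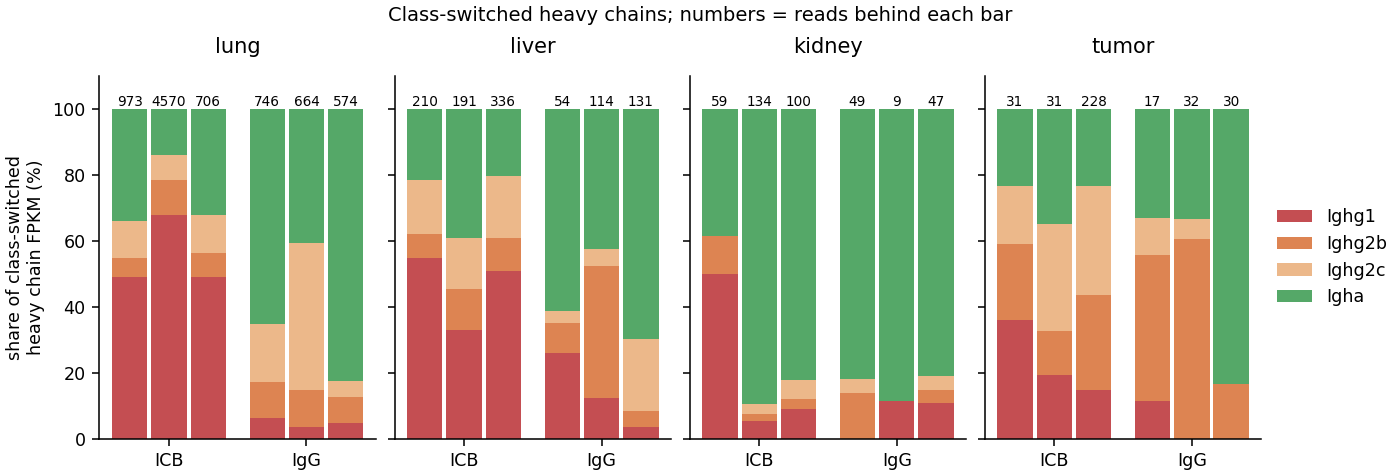
Share of the summed FPKM of Ighg1, Ighg2b, Ighg2c and Igha taken by each gene, in percent, one bar per library of lung, liver, kidney and tumor, with ICB left of IgG; the number above a bar is its reads. Ighg1 takes 49.0% to 67.8% in lung ICB libraries and 3.61% to 6.16% in lung IgG libraries, while kidney and tumor bars rest on as few as 9 and 17 reads.

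The groups of Igkc and Jchain were apart in liver and overlap in lung, a difference between tissues that was not tested. Liver Jchain was at 1.69, 0.906 and 2.44 FPKM with ICB and 0.302, 0.625 and 0.687 FPKM with IgG, a mean ratio of 3.12, and liver Igkc had a mean ratio of 2.99. In lung Jchain was at 1.30, 7.25 and 0.932 FPKM with ICB and 2.04, 3.45 and 0.992 FPKM with IgG, with overlap. Per unit of Igkc, Ighg1 in liver was 0.131 ± 0.0058 with ICB and 0.0444 ± 0.0332 with IgG (SD, n = 3 each), and in lung 0.103 ± 0.0628 with ICB and 0.00484 ± 0.00152 with IgG. Jchain per unit of Igkc was level in liver, at 0.0557 ± 0.00474 with ICB and 0.0543 ± 0.0122 with IgG.

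The titles number the libraries, and a number recurs across tissues of one treatment. ICB replicate 2 of lung, tumor, heart and muscle and ICB replicate 3 of liver share one number. The lung and liver libraries of that number were the highest of their groups for Ighg1 (34.0 and 5.31 FPKM), while the tumor library was the lowest of its group (0.0729 FPKM), the heart library lay between the other two and the muscle library had no read. Whether a number marks an animal is not stated.

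Genes of B cells, plasma cells and class switching were read beside these values. In lung 18 of 19 tested B cell markers and 13 of 13 T cell markers were higher with ICB, with medians of 0.45 and 0.41 on the log2 scale, beside 47.6% of all genes and a median of -0.01, which moved to 0.16 on the TPM scale. None passed (smallest limma adjusted p 0.898 over the list genes of lung). B cell markers summed to 110, 132 and 102 FPKM in lung ICB libraries and 149, 50.2 and 59.9 FPKM in IgG libraries, so the groups overlap. Cd79a, the signalling partner of membrane antibody, averaged 27.2 ± 4.22 FPKM with ICB and 19.1 ± 11.1 FPKM with IgG. In liver 2 of 2 tested B cell markers were higher, and the sums were 14.8, 6.85 and 20.3 FPKM with ICB and 4.01, 9.67 and 6.67 FPKM with IgG. The part of B cell number in the Ighg1 values was not tested.

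No gene of the plasma cell list passed. In lung 7 of 15 and in liver 2 of 10 tested genes of this list were higher with ICB, with medians of -0.02 and -0.21, beside 45.6% of all genes and a median of -0.02 in liver. Sdc1, one of the list's most abundant genes and also made by epithelium and liver cells, was at 138 ± 12.9 FPKM in liver ICB and 160 ± 15.4 FPKM in liver IgG libraries. Mzb1 was at 0.902, 0.630 and 2.21 FPKM in liver ICB and 0.944, 0.165 and 0.182 FPKM in liver IgG libraries, with overlap. Il4, the cytokine gene linked to IgG1, was at 0.621 to 0.943 FPKM in lung ICB and 0.738 to 1.28 FPKM in lung IgG libraries. Il4 was named after its values were seen.

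Receptors that bind the constant parts were led by Pigr and Fcgrt, the neonatal Fc receptor that recycles IgG. Pigr was at 370 ± 172 FPKM in liver ICB and 410 ± 202 FPKM in liver IgG libraries, and at 9.32 ± 2.84 FPKM in lung ICB and 9.14 ± 4.02 FPKM in lung IgG libraries. Fcgrt was at 153 ± 26.5 FPKM in liver ICB and 145 ± 8.78 FPKM in liver IgG libraries. Of the 8 receptors tested in liver 7 were higher with ICB, with a median of 0.61, among them the IgG receptor Fcgr3 (30.4 ± 17.3 FPKM with ICB, 12.9 ± 1.19 FPKM with IgG) and its signalling chain Fcer1g (65.0 ± 37.9 FPKM with ICB, 25.3 ± 9.95 FPKM with IgG). None passed over all genes. Macrophage and monocyte markers were higher with ICB for 9 of 9 tested in liver (45.6% of all genes), 10 of 10 in kidney (44.9%), 10 of 10 in muscle (50.6%), 11 of 12 in lung (47.6%), 9 of 10 in heart (51.3%) and 7 of 12 in tumor (48.2%), and none passed. In lung and in tumor their mean summed level was lower with ICB, against the sign of the median.

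Erythroid genes, which red blood cells bring into bulk tissue, were summed beside these values. They came to 1523, 2114 and 346.9 FPKM in lung ICB libraries and 15645, 8376 and 1578 FPKM in lung IgG libraries, with overlap. In liver they also overlapped, at 427, 205 and 658 FPKM with ICB and 711, 719 and 150 FPKM with IgG. In kidney they summed to 222, 361 and 256 FPKM with ICB and 545, 510 and 704.5 FPKM with IgG, and the groups are apart there as in heart and muscle, with ICB lower in each. None of the erythroid genes passed the limma test, and their part in the antibody values was not tested.

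V genes gave a second view of the same transcripts. In lung all 34 were tested and 29 were higher with ICB (median 0.46, 0 passed). Of all genes 47.6% were higher there, with a median of -0.01, which moved to 0.16 on the TPM scale. The V genes summed to 90.7, 148 and 60.8 FPKM with ICB and 86.1, 83.3 and 52.6 FPKM with IgG. In liver 4 of 4 tested were higher (median 0.80, 0 passed), beside 45.6% of all genes and a median of -0.02. The V genes there summed to 27.6, 14.1 and 32.7 FPKM with ICB and 5.25, 5.76 and 16.5 FPKM with IgG. The most abundant V gene over all libraries, Iglv1, was at 8.17 ± 4.56 FPKM in lung ICB and 5.85 ± 2.03 FPKM in lung IgG libraries. Igkv5-39 had a lower mean with ICB, at 1.13 to 2.94 FPKM in lung ICB and 1.45 to 23.6 FPKM in lung IgG libraries, where the mean of 9.002 ± 12.7 came from 1 library. The number of V genes with reads was 24, 18 and 29 in liver ICB libraries and 11, 12 and 20 in liver IgG libraries.

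Genes most like each antibody gene were sought among 16079 genes by the Pearson correlation of log2(FPKM + 1) after removing tissue means, over 36 libraries that share their tissues and treatments. For Ighg1 they were Smpdl3b (r = 0.81), Arl5c, Treml4, Pou2f2 and Cd5l (r = 0.77). Treatment means were not removed, so this ranking draws on the lung and liver ICB values for which Ighg1 was picked, and nothing is read from it. Lung held 74.1% of the spread of Ighg1, and without lung the r of Smpdl3b was 0.60 and that of Treml4 0.80. Jchain was most like B430306N03Rik (r = 0.75), then Ltf, Krt15, Bpifa1 and A2ml1, and without lung the r of Krt15 was -0.08 and that of Bpifa1 -0.19. Ighm was most like H3f3a (r = 0.78), Igkc like Sirpb1a (r = 0.70) and Igha like Tmem229a (r = 0.66).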

How the data were processed

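FPKM for 36 libraries were computed and deposited by the authors. Per the labels' protocols, total RNA was extracted with TRIzol and libraries were made with an Illumina TruSeq kit. Per the submitters' processing notes, HISAT2 2.1.0, mm10 and edgeR were used. Counter, annotation and strandedness were not given in the sources used here. From the FPKM, whole reads were recovered for 18781 of 18781 rows (tolerance 0.001 reads), giving 19005189 to 25512980 reads per library, with a scaling factor of 0.532 to 1.60 per library in the deposited values. Left out were 15 unnamed rows, holding 0.0834% to 0.374% of each library, and 6 rows that share a symbol. The genes and lists were chosen with earlier results of these data known.

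Treatments were compared per tissue with limma 3.58.1 (trend, two-sided, log2(FPKM + 1), FPKM of at least 1 in 3 of 6 libraries), and tissues in one fit of 12 group means over genes passing in at least 1 tissue. P-values were adjusted by Benjamini-Hochberg, threshold 0.05. Shares were compared by exact permutation. Named were the 10 genes, up to 4 genes per list with the highest mean FPKM, the 5 genes most like each of 5 antibody genes, and those said to be singled out. Alternatives were other pseudocounts, filters, scalings, fits and left-out libraries, and, added after seeing the data, shares among class-switched genes. Both tests were first tested on simulated data. Coordinates and sequences are from GRCm38 with GENCODE M21. R 4.3.3 and Python 3.11.15 were used.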

Additional observations from a re-analysis of the deposited data

How the results depend on the processing

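Of the 91 differences between tissues that passed for the 10 genes, 22 were lost under at least 1 alternative and 0 reversed; 14 were lost in IgG libraries alone, with fewer samples. The count of genes called moved beyond 1.5 times as follows, and the cause was not tested. For heart against tumor (1 gene) it was 4 with a pseudocount of 0.1, 3 on the TPM scale and 0 in IgG libraries alone. Those 3, Igkc, Ighm and Igha, were lower in heart, while the FPKM call, Ighg2c higher in heart, was lost. With a pseudocount of 0.1 it was also 5 for kidney against muscle (3), 3 for muscle against heart (1) and 5 for muscle against tumor (1). On the TPM scale it was 3 for liver against kidney (9) and 5 for liver against tumor (8), of which 4 were higher and 1 lower in liver. For muscle against tumor it was 3 on that scale (1 higher and 2 lower in muscle). In IgG libraries alone it was 1 for kidney against tumor (2) and 5 for liver against kidney and for liver against tumor.

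Leaving out one replicate of every group, which left 7 to 9 of the 10 genes to test, gave 0 to 2 genes for heart against tumor, 1 to 2 for kidney against tumor, 3 to 5 for liver against heart (7) and liver against kidney, 5 to 6 for liver against muscle (9), 4 to 5 for liver against tumor, 5 to 8 for lung against muscle (9) and 1 to 2 for muscle against heart. Of the 75 share tests 44 passed, and 0 did in IgG libraries alone, where 3 against 3 libraries cannot pass (42 to 48 with one library left out). The share of IgA among class-switched genes, added after the data were seen, moved from the IgA share of all heavy chains in each tissue by construction.

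Between treatments 0 genes passed in lung and in liver. One fit of all 36 libraries, which pools the spread of 6 tissues, called 1 gene in each, Ighg1, which was chosen for this difference, so the call is a description. With the title number as a replicate block it also called 1 in each. The block ended no call between tissues. Libraries of one treatment that share a title number across tissues had a median correlation of their deviations of 0.117 (32 of 56 pairs over 0.1), against -0.028 for libraries with different numbers (32 of 214 over 0.1). Not every pair was over 0.1 and no label explains the number, so it was not taken as a pairing. The permutation tests of shares took libraries as independent of one another and did not take the number into account. Within a tissue ICB and IgG libraries share no number. Ighg1 differed on the log2 scale by 2.90 in lung and 1.80 in liver, by 4.18 and 3.12 with a pseudocount of 0.1, and had no fitted value without any one of the ICB libraries, which brought it under the filter. Ighm in muscle ran from -0.38 without IgG replicate 1, a reversal, to 0.60 with another library left out. In tumor it ran from -0.61 to 0.34, reversing without ICB replicate 2 (0.03) and without IgG replicate 3 (0.34). Few reads outside lung limit the isotype shares and the fold changes of the IgG genes.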
